A study of Caenorhabditis elegans with 2 samples.

Results

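The cytochrome P450 genes of Caenorhabditis elegans were examined for binding of the GATA factor ELT-1 in whole L2 larvae. Binding was read by ChIP-seq, in which DNA cross-linked to a protein is precipitated with an antibody and sequenced. The genes were chosen by symbol, cyp- followed by a family number, and 74 of the 19973 protein-coding genes on the nuclear chromosomes of WBcel235, the assembly that the deposited region lists call ce11, met that rule. They fall into 15 families. With genes whose bodies lie within 10 kb of each other counted as 1 locus, they form 42 loci, of which 12 hold several genes and 44 genes in all. Chromosome V carries 41 of the 74 genes.

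The data come from 1 group of 2 biological replicates: pooled males and females of strain OP354, age unknown, which carries the unc-119(tm4063) allele on chromosome III and the insertion wgIs354, the source of the eGFP-tagged ELT-1. There was no group without the tag. The descriptions name the fusion as the target and the antibody label reads elt-1, so whether untagged ELT-1 was also recovered is not stated. All tissues of the larva were measured at once, and the tissue in which a site was bound cannot be told. With 1 group, no test between conditions was possible, and all values below are descriptions. Replicate values are given for the peaks and for some other regions, and the remaining values come from 1 list alone. The read depth of the libraries is unknown.

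Cytochrome P450 enzymes are heme proteins, most of them anchored in the endoplasmic reticulum, that insert an oxygen atom into their substrates with electrons passed on by NADPH-cytochrome P450 reductase. In the worm some clear foreign compounds, and others make signalling lipids, eggshell lipids or steroid hormones. Many of the foreign-compound genes stand in tandem arrays and are active in the intestine, where the GATA factor ELT-2 is the main regulator. ELT-1 is the GATA factor that specifies the epidermis in the embryo, and GATA factors share the core binding site WGATAR, which is GATA with A or T before it and A or G after it, on either strand.

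Each gene was given a window from 3 kb upstream of its start to its end. A region belonged to the gene when its summit, the point of highest signal, lay in that window. The pooled list ranks 30000 regions by signal, most of them weak. It is labelled as peaks and background, the input for IDR (irreproducible discovery rate). The authors' IDR-thresholded list holds 351 of these regions, called peaks here, which are also the strongest 351 by signal. Because the signal scale differs between lists, a region's strength is given as its rank and as its fold over the median region of its own list. The weakest peak of the genome stood at 3.15-fold.

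Peaks lay in the windows of 2 of the 74 P450 genes, cyp-14A5 and cyp-13A2. They share neither a family nor a locus. The first was among the strongest peaks of the genome in both replicates, and the second was strong in replicate 1 only. The sequences around the cyp-14A5 peak and around its neighbour, a second peak in the same stretch between genes, are shown first because they carry the reproducible signal. Each covers 101 bases centred on the summit, plus strand, ce11 as read from the RefSeq genome of that assembly, with WGATAR sites in capitals.

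cyp-14A5 peak, chrV:5425187-5425287: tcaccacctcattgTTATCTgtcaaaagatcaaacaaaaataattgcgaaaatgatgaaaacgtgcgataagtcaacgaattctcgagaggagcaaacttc
second peak, chrV:5426478-5426578: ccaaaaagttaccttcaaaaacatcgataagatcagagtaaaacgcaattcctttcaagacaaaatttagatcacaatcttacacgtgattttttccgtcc

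The gene cyp-14A5 (WBGene00000373) lies on the minus strand of chromosome V from 5421018 to 5423282. Its peak spanned 66 bp, from 5425226 to 5425291, between genes, with its summit 1955 bp upstream of the gene start. The pooled signal was 98.4, which ranked 10 of 30000 regions and stood 12.6-fold over the median region. In replicate 1 the matching region had a signal of 53.5, rank 12 and 11.5-fold, and in replicate 2 a signal of 50.4, rank 6 and 9.76-fold. The mean was 10.6 ± 1.24-fold (SD, n = 2), and the summits of both replicates lay 13 bp apart. Both replicates thus placed the region among their strongest 12, at nearly the same base. The capitals in the first sequence above read AGATAA on the minus strand, from 5425201 to 5425206, which is -36 to -31 relative to the summit. The site is outside the 66 bp that the pooled peak spans. It is inside the matching regions of replicate 1 (5425088 to 5425363) and replicate 2 (5425087 to 5425390).

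The peak was not in the window of cyp-14A5 alone. It also fell in that of rhr-1, which encodes an Rh-type ammonium transporter and is read in the opposite direction, with its start 2923 bp from the summit. The second peak lay 1291 bp farther from cyp-14A5, from 5426396 to 5426659, 3246 bp upstream of the cyp-14A5 start and so outside its window, and 1632 bp from the nearest transcript start, that of rhr-1. It ranked 49 in the pooled list at 7.02-fold, 48 in replicate 1 at 7.54-fold and 98 in replicate 2 at 3.54-fold, a mean of 5.54 ± 2.83-fold (SD, n = 2). It was weaker in replicate 2 but among the first 351 regions of both replicates. Its sequence above holds no WGATAR. No other peak lay within 20 kb of the cyp-14A5 start, and the stretch between cyp-14A5 and rhr-1 is 4877 bp long. Which of these genes, if either, the peaks act on was not tested.

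Closer to the cyp-14A5 start the signal was weak. The pooled list held regions at -1176 bp (1.15-fold, rank 9355) and at -125 bp (1.07-fold, rank 12019). In replicate 1 a region at -59 bp reached 2.06-fold at rank 1226, with no match in replicate 2.

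**Figure D1:**
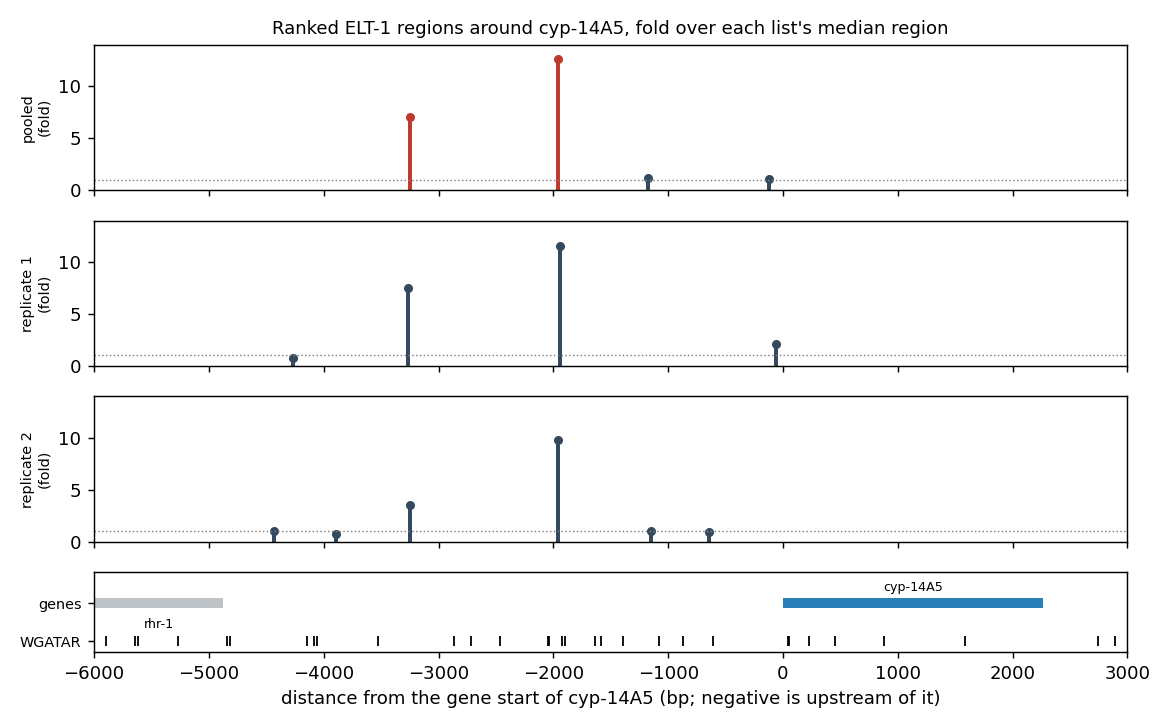
Ranked regions by distance from the cyp-14A5 start, as fold over the median region of the pooled list and of each replicate's list (bars, height on a linear axis), with genes and WGATAR sites below. Red marks the thresholded peaks of the pooled list, and both tall regions recur in each replicate while regions nearer the start reach at most 2.06-fold.

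The other genes of family CYP14, cyp-14A1 to cyp-14A4, form a tandem array on chromosome X and held no peak. The genes cyp-14A1 and cyp-14A2 had no ranked region in the pooled list, cyp-14A3 had 1 at 0.900-fold, and the strongest region of cyp-14A4 stood at 1.22-fold. In replicate 2 cyp-14A4 had a region at 1.81-fold, rank 1491, against 1.37-fold for its strongest region in replicate 1. Within the family, the peak was thus measured at the gene that stands apart from the array.

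The peak at cyp-13A2 (WBGene00011676, chromosome II, 9783384 to 9787629, minus strand) lay on the start of the gene. It spanned 264 bp from 9787477 to 9787740, with its summit 20 bp inside the gene, in the annotated 5′ UTR exon (9787354 to 9787629). The pooled signal of 29.9 ranked 227 and stood 3.83-fold over the median region, close to the 3.15-fold of the weakest peak. Replicate 1 gave a signal of 22.1, rank 150 and 4.75-fold. The region matched to it in replicate 2 had a signal of 5.098, rank 15567 and 0.987-fold, and the strongest region of the cyp-13A2 window in replicate 2 stood at 1.02-fold. The mean of 2.87 ± 2.66-fold (SD, n = 2) thus has a spread nearly as large as itself, and the peak rested on replicate 1.

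The gene stands in a tandem array of 8 genes, cyp-13A1 to cyp-13A8, which spans 28389 bp and held 9 ranked regions, 1 of them the peak. In the pooled list the strongest region stood at 1.19-fold for cyp-13A1, 1.53-fold for cyp-13A3, 0.844-fold for cyp-13A4, 0.797-fold for cyp-13A5 and 0.962-fold for both cyp-13A6 and cyp-13A7, which shared it. The gene cyp-13A7 is known for its induction by the antibiotic rifampicin. The gene cyp-13A8 had no region in any list. Only 47.6% of the 30-base words of its window occur once in the genome.

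**Figure D2:**
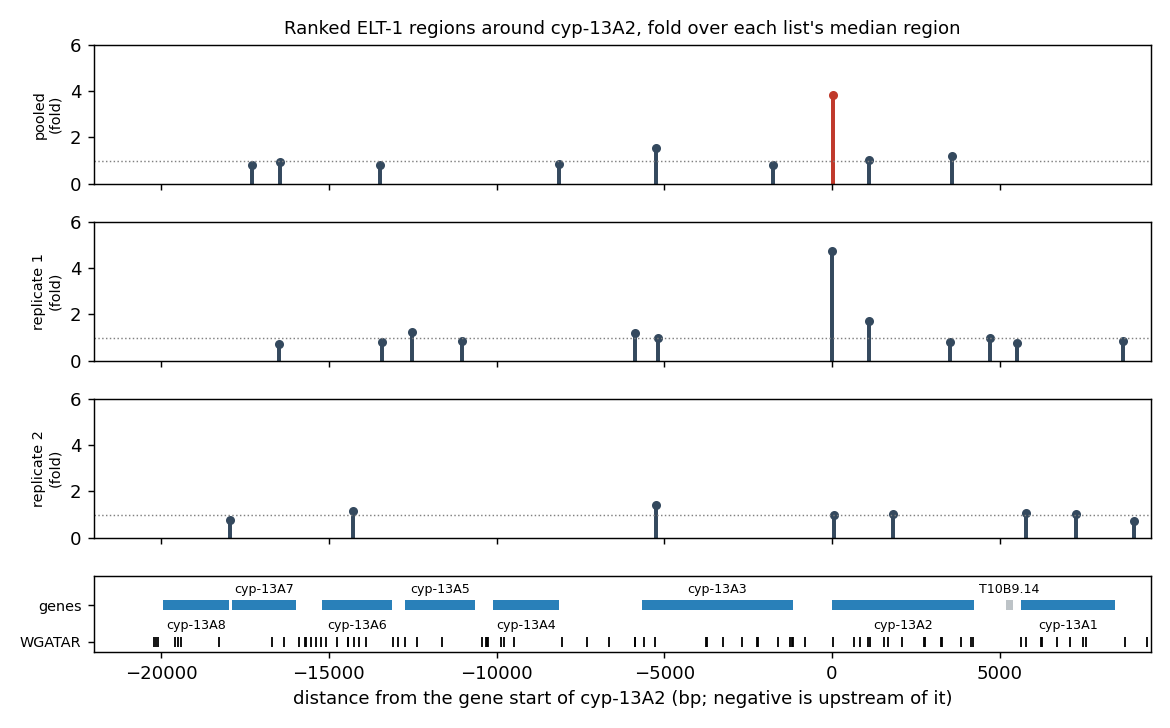
Ranked regions across the cyp-13A array, by distance from the cyp-13A2 start, as fold over the median region of the pooled list and of each replicate's list (bars), with genes and WGATAR sites below. The tall region at the cyp-13A2 start (red, the thresholded peak) is seen in the pooled list at 3.83-fold and in replicate 1 at 4.75-fold, and the replicate 2 bar there is level with the rest of the array.

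Within 50 bp of their starts, 4 of the 8 genes of the array hold a WGATAR site. The sites are shown in 30 bases on the strand of the gene, with the site in capitals, to set the start that held the peak beside those that did not.

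cyp-13A2, chrII:9787584-9787613: gtgtctagatcgTTATCTcttttcgttttc
cyp-13A1, chrII:9781963-9781992: tatgagaagaggTGATAAgcgaaattagtc
cyp-13A5, chrII:9800354-9800383: actctctggactAGATAGaagaaacactat
cyp-13A6, chrII:9802853-9802882: ctctatgttctcTTATCAgtacactatatc

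The site of cyp-13A2 lay 28 bp inside the gene, that of cyp-13A1 17 bp inside, and those of cyp-13A5 and cyp-13A6 at -9 and -49 bp. Of the 8 genes, cyp-13A2 was the one with a ranked region within 100 bp of its start. A site near the start was therefore found with a peak at 1 of these 4 genes and without a ranked region at the other 3.

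Over the whole family of genes, peaks were about as frequent as in the genome. A peak lay in the window of 2.70% of the P450 genes (2 of 74, exact 95% interval 0.329 to 9.42%), against 1.74% of all protein-coding genes (348 of 19973). The interval treats genes as independent, which tandem genes with shared regions are not. By locus the count was 2 of 42. Among the first 351 regions of replicate 1 the count was again 2 of 74, against 1.77% of all genes, and among those of replicate 2 it was 1 of 74 (1.35%), against 1.94% of all genes. The share lay near the background in each list.

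Over all ranked regions the values also lay near those of the genome. A ranked region of any strength lay in the windows of 60 P450 genes (81.1%), against 80.4% of all genes, and the windows held 0.326 regions per kb, against 0.311 for all genes. The strongest region had a median of 1.17-fold for P450 genes and 1.16-fold for all genes. Its upper quartile was 1.32-fold for P450 genes and 1.43-fold for all genes. A region within the first 1000, peaks included, lay in the windows of 3 P450 genes (4.05%), against 5.26% of all genes, and a region within the first 5000 in those of 14 (18.9%), against 24.8% of all genes. These differences of a few genes were not tested.

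The P450 windows held 112 distinct regions, 21 of them in the windows of more than 1 P450 gene and 48 (42.9%) also in that of another gene. The nearest transcript start belonged to a P450 gene for 81 regions. By position, 54 lay in exons, 28 in introns and 30 between genes. Matching regions in both replicates were found for 17 of the 112 (15.2%), against 13.4% of all 30000 regions, and 22 had a match in neither. Among all 112, 1 region, the cyp-14A5 peak, was matched within the first 5000 of both replicates (0.893%), against 2.12% of all 30000 regions.

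**Figure D3:**
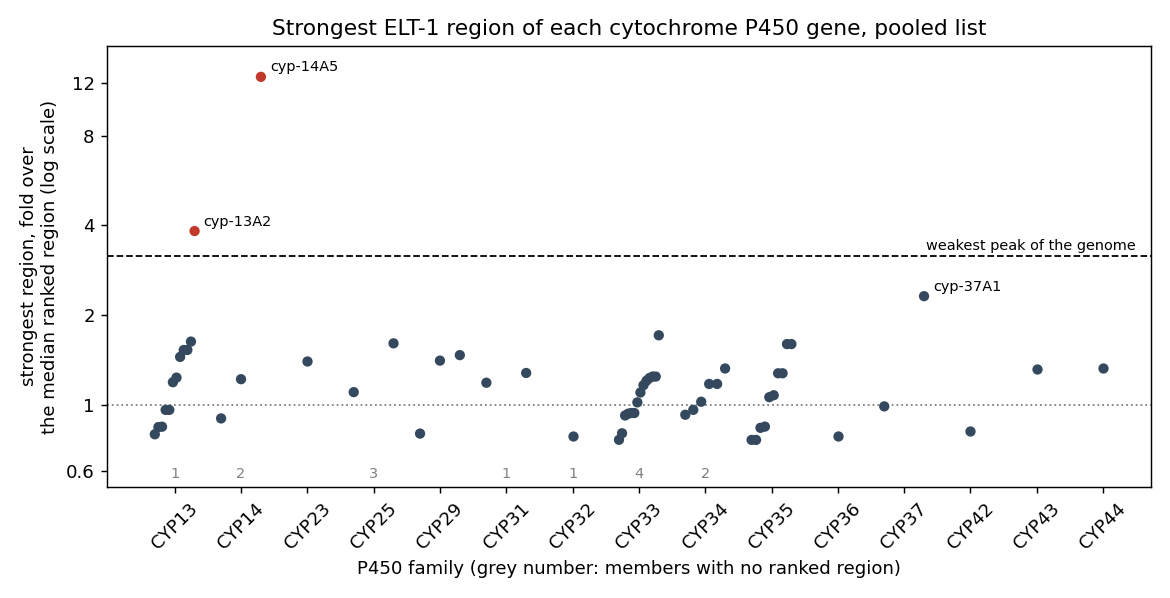
Strongest ranked region of each P450 gene in the pooled list, as fold over the median region (log axis), by family, with peaks in red and the number of genes without a region in grey. Only cyp-14A5 at 12.6-fold and cyp-13A2 at 3.83-fold lie above the dashed line, the weakest peak of the genome at 3.15-fold, and the next gene is cyp-37A1 at 2.32-fold.

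The strongest region below the threshold belonged to cyp-37A1, at 2.32-fold and rank 706 in the pooled list. It spanned 14018363 to 14018626 on chromosome II, at -1530 bp from the cyp-37A1 start and inside an intron of F01D5.10. It stood at 2.02-fold in replicate 1 (rank 1326) and at 0.781-fold in replicate 2 (rank 26164), a mean of 1.40 ± 0.873-fold (SD, n = 2). Like the cyp-13A2 peak, it was thus high in replicate 1 alone. Its sequence is shown beside that of cyp-33B1, the next gene in rank, because the windows differ in base composition: the cyp-37A1 window has 59.4% G or C and no GATA on either strand, and the cyp-33B1 window has 31.7% and 2 WGATAR sites.

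cyp-37A1 region, chrII:14018445-14018545: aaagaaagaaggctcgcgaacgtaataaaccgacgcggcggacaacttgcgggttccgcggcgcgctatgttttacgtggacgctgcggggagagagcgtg
cyp-33B1 region, chrV:9043058-9043158: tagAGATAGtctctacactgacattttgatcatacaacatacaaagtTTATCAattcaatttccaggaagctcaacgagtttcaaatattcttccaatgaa

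The cyp-33B1 region lay in an intron of that gene, from 9042976 to 9043239 on chromosome V, at 1.71-fold and rank 1892. In the replicates it stood at 1.36-fold (replicate 1) and 0.789-fold (replicate 2). The next were cyp-13B1, with a region at -52 bp from its start at 1.63-fold, and cyp-25A1, with a region at -2936 bp at 1.61-fold that lies in an exon and is nearest to the transcript start of cnnm-5. The cyp-13B1 region was at 0.781-fold in replicate 1 and 1.11-fold in replicate 2. The cyp-25A1 region was at 0.995-fold in replicate 1 and 2.19-fold in replicate 2, where it ranked 588. The remaining 6 of the 10 strongest genes without a peak, cyp-35B2 and cyp-35B3 with a shared region, cyp-13A11, cyp-13A3, cyp-29A3 and cyp-13B2, lay between 1.45 and 1.60-fold. Each of the 4 regions given by replicate above lay below the median region of its list in 1 of the replicates.

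In the following, a gene's value in a replicate is that of the strongest region of its window there, which can lie at another place than in the other lists, unless a match is stated. Among the genes that respond to foreign compounds, family CYP35 is the best known. All 10 of its genes had a ranked region and none a peak, with strongest regions from 0.763 to 1.60-fold and a median of 1.07-fold. The adjacent genes cyp-35A1 and cyp-35A2 shared a region at 1.28-fold, cyp-35A3 had 1 at 1.06-fold and cyp-35A4 1 at 0.845-fold. The genes cyp-35A5 and cyp-35B1, the second also known as a target downstream of the insulin-signalling factor DAF-16, shared a region at 0.763-fold. For cyp-35C1 the value was 0.837-fold. In the replicates, the strongest region of cyp-35A1 stood at 0.998-fold (replicate 1) and 1.01-fold (replicate 2), and that of cyp-35C1 at 1.18-fold (replicate 1) and 0.950-fold (replicate 2). The highest CYP35 values in a single replicate were 1.69-fold for cyp-35B2 in replicate 1 and 1.22-fold for cyp-35A3 in replicate 2.

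Most of family CYP34 lies in the same array as part of CYP35, the largest P450 locus, with 10 genes over 36666 bp of chromosome V, 10 ranked regions and no peak. Of the 8 CYP34 genes, 6 had a region, between 0.926 and 1.32-fold. The gene cyp-34A9, also a target downstream of DAF-16, had none in the pooled list and stood at 0.957-fold in replicate 1 and 0.736-fold in replicate 2. The 18 genes of family CYP33, the largest, had regions at 14 genes, from 0.763 to 1.71-fold.

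Genes for signalling lipids gave similarly low values. The gene cyp-33E2, which makes eicosanoids from polyunsaturated fatty acids, had no region in the pooled list and stood at 1.31-fold in replicate 1 and 1.59-fold in replicate 2. The gene cyp-29A3, also linked to eicosanoid synthesis, stood at 1.47-fold in the pooled list and, at the matching region, 1.41-fold in replicate 1. Its strongest region in replicate 2, at 1.50-fold, lay 679 bp from that of replicate 1. The gene cyp-13A12, which acts in the behavioural response to reoxygenation, stood at 1.23-fold in the pooled list and, at the same summit, 1.62-fold in replicate 2. The strongest region of cyp-13A12 in replicate 1 was another, at 0.966-fold. The gene cyp-36A1, which acts downstream of the hypoxia factor HIF-1, had a single region in the pooled list, at 0.786-fold.

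For the eggshell lipid genes, cyp-31A2 had no region in the pooled list and cyp-31A3 had 1 at 1.19-fold, whose matching regions stood at 0.818-fold in replicate 1 and 0.809-fold in replicate 2. In the pooled list cyp-44A1, of the mitochondrial P450 class, stood at 1.33-fold, cyp-23A1 at 1.40-fold, cyp-37B1 at 0.988-fold and cyp-42A1 at 0.817-fold. For cyp-37B1, replicate 1 held no region and the strongest of replicate 2 stood at 1.64-fold. The gene cyp-25A2 had no region in the pooled list. Of these, cyp-23A1 kept a value above the median region in both replicates, 1.80-fold in replicate 1 and 1.51-fold in replicate 2, but at summits 6753 bp apart.

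No ranked region lay in the windows of 14 P450 genes in the pooled list, and 5 of them (cyp-13A8, cyp-25A4, cyp-25A6, cyp-32A1 and cyp-33D1) had none in either replicate. Genes of families CYP33 (4 genes) and CYP25 (3 genes) made up 7 of the 14. For 5 of the 14, less than 90% of the 30-base words of the window occur once in the genome, as for 11 of the 60 genes with a region. The lowest shares were 34.9% for cyp-25A6, 42.6% for cyp-25A3, 46.9% for cyp-25A4 and 47.6% for cyp-13A8, and 3 of these 4 genes had no region. Over all genes the share of windows under 90% was 38.9% among genes without a region and 21.3% overall. How far repeated sequence sets the missing regions was not tested, and the read length is not given in the sources used here. The shares were 99.3% for cyp-32A1 and 99.8% for cyp-33D1.

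The replicates gave a P450 region of any strength at 55 common genes. For 3 of them (5.45%), cyp-14A5, cyp-29A2 and cyp-35B1, the strongest summits of both replicates lay within 100 bp, against 1363 of 13624 genes with a region in both. At cyp-29A2 the values were 1.11-fold in replicate 1 and 1.30-fold in replicate 2, and at cyp-35B1 0.946-fold in replicate 1 and 0.935-fold in replicate 2, so that cyp-14A5 was the one strong gene among them. Across the 55 genes the strongest fold of replicate 1 and of replicate 2 had a Spearman rho of 0.29, against 0.22 across those 13624 genes. Genes share regions and are not independent replicates. The fold was higher in replicate 1 for 30 of the 55.

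**Figure D4:**
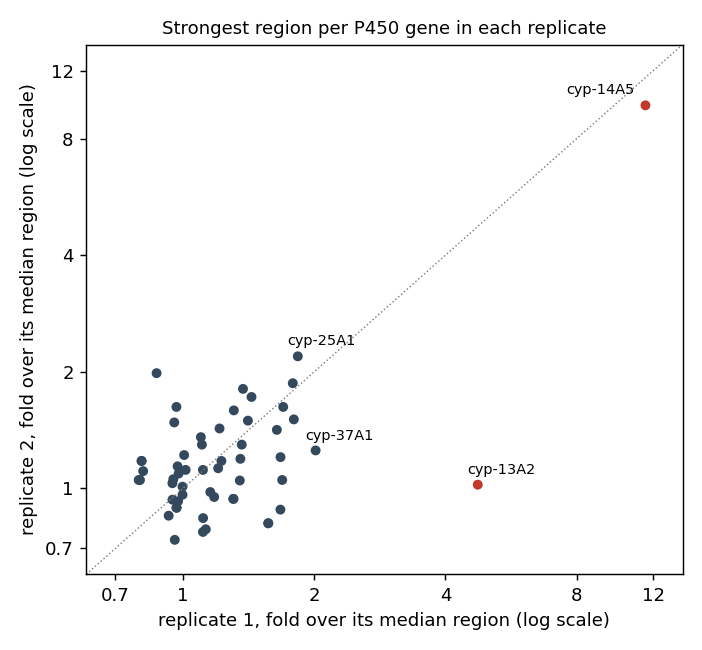
Strongest region of each of the 55 P450 genes with a region in both replicates, replicate 1 against replicate 2, as fold over the median region of each list (log axes, dotted line at equal values, genes with a peak in red). The gene cyp-14A5 is high on both axes, cyp-13A2 on that of replicate 1 only, and the others reach at most 2.02-fold in replicate 1 (cyp-37A1) and 2.19-fold in replicate 2 (cyp-25A1).

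At both peaks AGATAA lay within 50 bp of the summit, at cyp-14A5 outside the pooled peak itself but inside the matching regions of both replicates. The word occurred in 33.6% of all 351 peaks and in 6.63% of the 29649 ranked regions below the threshold. WGATAR was present in 53.8% of all peaks. Of the 110 P450 regions below the threshold, 19 held WGATAR (17.3%, exact 95% interval 10.7 to 25.7%), against 20.5% of all regions below the threshold. With 2 peaks, the P450 genes allow no statement on how often their peaks hold the site.

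WGATAR sites were far more common than regions. Every P450 window held between 7 and 26 of them, 947 in all over 349 kb of merged windows, or 2.71 per kb, against 2.38 per kb in the windows of all genes. Of the 947 sites, 2 lay within 50 bp of a peak summit and 24 (2.53%) within 50 bp of the summit of any ranked region, against 3.11% of the sites in the windows of all genes.

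These sites gathered at the starts of the P450 genes. From -100 to -51 bp relative to the annotated start the density was 8.38 per kb, against 3.24 per kb for all genes, and from -50 to -1 bp it was 6.76 per kb, against 3.23 per kb for all genes. From -1000 to -501 bp it was 2.43 per kb for P450 genes and 2.5 per kb for all genes. A site lay within 50 bp of the start in 34 of the 74 P450 genes (45.9%), spread over 24 loci, against 22.6% of all genes. By family these were 8 of 10 CYP35 genes, 7 of 18 CYP33 genes, 5 of 13 CYP13 genes, 2 of 8 CYP34 genes, 2 of 5 in each of CYP14 and CYP25, 2 of 3 CYP31 genes and both CYP32 genes, with 1 gene each in CYP29, CYP36, CYP42 and CYP43.

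Few of the sites at the starts coincided with ranked regions, most of which lie below the peak threshold, in P450 genes as in all genes. Of the 34 P450 genes with a site there, 4 (11.8%) had a ranked region within 100 bp of the start, 1 of them the cyp-13A2 peak. The share was 7.91% of all genes with a site. Of the 40 P450 genes without a site 6 (15%) had a region and none a peak, against a region in 8.43% of all genes without a site. The site at the cyp-14A5 peak is 1 of those far from a start. Of all 74 P450 genes 10 (13.5%) had a ranked region within 100 bp of the start, against 8.31% of all genes. Apart from that of cyp-13A2, these regions stood between 0.800 and 1.63-fold. A peak lay there for 1 of the 74 (1.35%), cyp-13A2, which was high in replicate 1 only, against 0.120% of all genes. The sequence alone does not tell which GATA factor, if any, uses the sites.

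**Figure D5:**
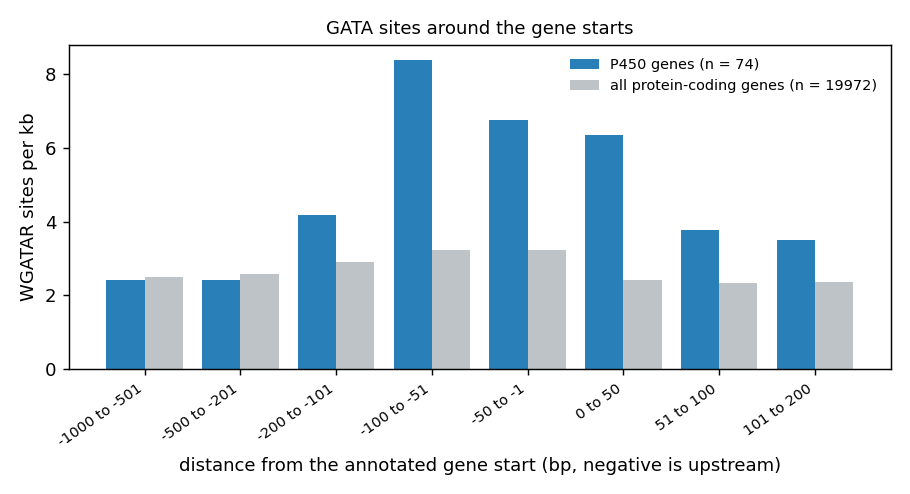
Density of WGATAR sites per kb by distance from the annotated gene start, for the 74 P450 genes (blue) and for 19972 protein-coding genes (grey; a gene at the end of a chromosome has no full window). P450 genes reach 8.38 per kb from 100 to 51 bp upstream and lie slightly below all genes beyond 200 bp upstream.

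The enzymes and regulators that work with P450 genes were examined in the same windows, as 164 genes in 8 lists. Of these, 5 (3.05%) held a peak, against 1.74% of all genes. The lists were chosen with earlier results of these data known, so their share is no independent measure beside that of all genes. Glutathione S-transferases, which conjugate oxidised compounds to glutathione, gave 3 of 44. The neighbouring genes gst-17 and gst-18 shared a peak on chromosome II (13632377 to 13632640), at -1622 bp from the gst-18 start, at 9.09-fold in the pooled list, 8.38-fold in replicate 1 and 6.64-fold in replicate 2 (7.51 ± 1.23-fold, SD, n = 2). It also lay in the window of tag-10. A peak inside gst-42, from 11726530 to 11726793 on chromosome X, stood at 8.62-fold, with 7.69-fold in replicate 1 and 6.42-fold in replicate 2 (7.05 ± 0.893-fold, SD, n = 2). The gst-42 peak also lay in the windows of D1053.2 and D1053.4. Both peaks were high in both replicates and held 1 WGATAR site each.

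Of 11 regulators, 2 nuclear hormone receptor genes held a peak. For nhr-49, which controls fatty acid metabolism, it lay inside the gene on chromosome I (9870109 to 9870372) at 3.74-fold, with 4.45-fold in replicate 1 and 1.58-fold in replicate 2. For nhr-68, which controls propionate breakdown, it lay at -474 bp (chromosome V, 11572834 to 11573097) at 3.59-fold, with 3.52-fold in replicate 1 and 2.33-fold in replicate 2, and held no WGATAR. The nhr-68 peak also lay in the windows of pms-2 and H12C20.7. The other regulators, among them skn-1, daf-12 and nhr-8, held none. The strongest of their regions was that of hif-1, at 2.57-fold and rank 545 in the pooled list. It stood at 2.65-fold in replicate 2 (rank 267) and had no match in replicate 1.

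No peak lay in the windows of 67 UDP-glucuronosyltransferase genes, 30 short-chain dehydrogenase genes, 5 flavin monooxygenase genes or 4 genes of the dafachronic acid pathway, which makes steroid hormones that control dauer entry. The P450 gene of that pathway, daf-9, had no ranked region in the pooled list. Of the electron donors, in the same list, emb-8, the P450 reductase, stood at 1.22-fold, cytb-5.1 at 1.73-fold and cytb-5.2 had no region.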

How the data were processed

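ELT-1 ChIP-seq regions of 2 biological replicates of L2 larvae were analysed. The values used are a signal per region, deposited by the authors in 4 lists on ce11: a ranked list for each replicate, a ranked list for the pooled replicates, and the thresholded part of the pooled list. Regions had been called per replicate and on pooled reads, per the file listing that came with the lists. The thresholded list is labelled as optimal and IDR-thresholded. The IDR cutoff, the aligner, the caller, its threshold and the control strain were not given in the sources used here. Lists on ce10 were not used. The lists give no read depth, so exact (Clopper-Pearson) 95% intervals cover the counting of genes or regions only.

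Signals were compared within a list, as ranks and as folds over its median region. Replicate values came from the nearest summit within 100 bp, and SDs include the difference in scale between lists. Genes came from Ensembl release 115 and sequences from the RefSeq genome of the same assembly. Coordinates are 1-based. Python 3.11.15, pandas 2.3.3, numpy 2.4.6 and SciPy 1.17.1 were used, and the steps were tested on simulated data. Members and gene lists were chosen with earlier results of these data known. Named genes are those with a peak and their locus, the 10 strongest without one, those with a known role and related genes with a peak. Named after their values were seen were cyp-13A12, cyp-29A2, cyp-32A1, cyp-33D1, cyp-25A3, cyp-25A4, cyp-25A6, cyp-33A1, cyp-33D3, cyp-43A1, the region of hif-1 and the second peak upstream of cyp-14A5. Alternatives changed the window, gene assignment, peaks, replicates, locus gap, matching distance and motif.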

Additional observations from a re-analysis of the deposited data

How the results depend on the processing

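The count of P450 genes with a peak rested on few peaks and on the window. With a window from 1 kb upstream, with promoters only, or with the stronger 175 peaks only, 1 gene at 1 locus with 1 peak was left (2 each in the report): cyp-13A2 in the first 2 settings and cyp-14A5 in the last. That is 1.35% of P450 genes, against 1.19% (1 kb), 0.806% (promoters) and 0.866% (stronger peaks) of all genes. A window from 5 kb upstream gave 3 genes at 3 loci and 4 peaks, 4.05% of P450 genes against 2.23% of all genes. Leaving out 1 replicate gave from 1 to 2 genes, loci and peaks. Without replicate 1 the share of P450 genes was below that of all genes, 1.35% against 1.94%, while in the pooled list it was above, 2.70% against 1.74%. The median strongest fold was 0.962 with the 1 kb window, and from 1.11 to 1.12 in the single replicates, against 1.17 in the pooled list. WGATAR lay within 25 bp of 1 of the 2 peaks, and with 1 replicate left out from 1 to 2 P450 peaks held it. With the 1 kb window 3 related genes held a peak. Joining loci over 5 or 20 kb gave 45 or 40 loci, 2 of them with a peak. Of 41 alternative values 19 stayed within the limits used and 22 moved. Counts were compared by their ratio and folds against the SD of the 2 replicates. That SD was 0.0027 for the median strongest fold, so small shifts of it counted as moved. Genes, loci and peaks were scored separately, so 1 lost peak could count more than once. For cyp-14A5 the single replicates gave 9.76 to 11.5-fold, for cyp-13A2 1.02 to 4.75-fold. No paired analysis was possible because there is 1 group. The 2 replicates, unknown depth and the lack of an untagged group limit every value.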

Other observations

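A window of 5 kb added a peak for cyp-33A1, on chromosome V from 7686327 to 7686590, 5000 bp upstream of that gene and 77 bp from the transcript start of nhr-152, a nuclear hormone receptor gene. It ranked 313 in the pooled list at 3.28-fold and 148 in replicate 1 at 4.77-fold, and had no match in replicate 2. It also lay in the windows of nhr-94 and sre-11.

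Some P450 genes had regions of middling strength in a single replicate. In replicate 2 a region of cyp-33D3 stood at 1.98-fold (rank 938) and 1 of cyp-43A1 at 1.87-fold (rank 1275), both without a match in replicate 1. In replicate 1 a different region of cyp-43A1 stood at 1.79-fold (rank 2101), 1 of cyp-25A1 at 1.83-fold (rank 1882) and 1 of cyp-23A1 at 1.80-fold (rank 2062), all without a match in replicate 2.

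The windows of both peaks between cyp-14A5 and rhr-1 hold the word CGATAA, which was chosen after these windows had been read. It occurred within 50 bp of the summit in 61 of all 351 peaks (17.4%) and in 4.48% of the ranked regions below the threshold.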
